A study of Mus musculus with 12 samples.

Results

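Total RNA of NMuMG-ErbB2/PGC-1alpha explants and of control explants (NMuMG-ErbB2/VC), both under phenformin, was compared on expression arrays. The comparison used 6 of the 12 arrays of the series, 3 per line, and covered 19505 genes, each represented by the probe set with the highest mean over the 12 arrays. NMuMG cells come from normal mouse mammary epithelium, and both lines carry the ErbB2 oncogene, a receptor tyrosine kinase that drives mammary tumours. Cells of either line had been injected into the tail vein of mice, and explants of the resulting lung metastases were cultured and exposed to 100 uM phenformin for 4 days. The other 6 arrays held control explants of the same lines, given distilled water in place of phenformin for 4 days ("in water" below). The labels name 1 PGC-1alpha line and 1 control line and do not say whether the replicates came from separate mice or cultures, so each p-value rests only on how far these arrays vary, and that variation may be technical. An effect of PGC-1alpha cannot be told apart from any other difference between the explanted cells of the lines.

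PGC-1alpha, encoded by Ppargc1a, is a transcriptional coactivator that docks on nuclear receptors and on respiratory factors such as NRF1 and GABP and is known for raising mitochondrial biogenesis and oxidative metabolism. Phenformin, a biguanide, blocks respiratory complex I, which lowers mitochondrial ATP output and activates the energy sensor AMPK. Cells that depend on respiration and cells that depend on glycolysis differ in how they tolerate such drugs.

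Ppargc1a was higher in every array labelled PGC-1alpha. Under phenformin its log2 value was 8.18, 8.20 and 8.37 in PGC-1alpha explants and 7.11, 7.29 and 6.97 in control explants. The difference was 1.13 ± 0.11 (standard error from limma, as in all differences below; adjusted p = 5.9e-05, Benjamini-Hochberg over all genes). Background on each array was set at the 95th percentile of its negative control probe sets. No control array exceeded it for Ppargc1a, so the fold is a bound, at least 1.26-fold. Below, "at least" marks such bounds, and no fold is given for genes under this background in both groups. Where a fold is given and only some arrays of a line exceeded background, their number is stated. Some genes above background are also given without a fold.

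Between the lines under phenformin, limma called 783 genes at an adjusted p under 0.05, or 4.01% of the genes tested. Of these, 167 (0.856% of genes tested) were higher in PGC-1alpha explants and 616 (3.16%) were lower, so 21.3% of the calls were higher. The 3 arrays of each line did not overlap in any of the 783 called genes, a pattern that 27.5% of all genes tested also had. Among the called genes the median size of the difference was 0.64 on the log2 scale, against 0.14 over all genes. At least a 2-fold difference, 1 log2 unit, was reached by 25 of the higher and 88 of the lower genes. The count of calls rested on single arrays: it was 401, 404 and 461 without PGC-1alpha replicates 1, 2 and 3, and 346 and 461 without control replicates 2 and 3. Of the 783 genes, 301 were called whichever of the 6 arrays was left out, and so were 77 of the 149 called genes that the naming rule chose. The genes named below that lost their call whichever of the 6 arrays was left out were Atp5o, Bhlhe40, Cbr1, Ccne1, Cd14, Cdc45, Chchd10, Flt1, Gsta2, Itgb5, Jup, Mrpl15, Ndufb4, Pdp1, Pfkp, Prkaa1, Prkaa2, Rora, Rragb, Selp, Sod1 and Timm8a1.

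The largest falls in PGC-1alpha explants were those of Pmp22, Adgrg2 and Grem1. Pmp22, a tetraspan membrane protein of myelin and of epithelial junctions on chromosome 11, stood at 6.37, 6.68 and 6.50 in PGC-1alpha explants and at 10.00, 10.11 and 10.05 in control explants. The difference was -3.54 ± 0.23, at least 4.31-fold (limma adjusted p = 1.08e-06), and the lines stood far apart with little spread within either. Adgrg2, an adhesion G protein-coupled receptor encoded on the X chromosome, had values of 5.46, 5.61 and 5.50 against 8.89, 9.46 and 8.82 in control explants. All 3 PGC-1alpha arrays lay under background and all 3 control arrays above it (-3.53 ± 0.22, at least 2.16-fold, adjusted p = 8.93e-07). Grem1, a secreted antagonist of bone morphogenetic proteins, stood at 7.12, 6.69 and 7.02 against 9.85, 10.03 and 9.87. It was at least 3.92-fold lower (-2.97 ± 0.16, adjusted p = 4.19e-07).

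Sod3, the superoxide dismutase secreted into the matrix, stayed well above background in both lines, at 9.0, 9.33 and 9.24 in PGC-1alpha explants and 11.72, 11.85 and 11.80 in control explants. It was 6.06-fold lower (-2.60 ± 0.23, limma adjusted p = 1.73e-05). The water channel Aqp5 had values of 8.09, 7.51 and 8.04 against 10.32, 10.52 and 10.18, which is 5.50-fold lower (-2.46 ± 0.21). Its 3 control arrays all lay more than 2 log2 units above the highest PGC-1alpha array, and 2 of the 3 PGC-1alpha arrays exceeded background. Cyp1b1, a cytochrome P450 that oxidises estrogens and xenobiotics, had values of 6.43, 6.60 and 6.48 against 9.05, 9.20 and 9.13 (at least 2.27-fold, -2.62 ± 0.19). The lysyl oxidase Loxl3 (-2.66 ± 0.16, at least 3.40-fold), the endocytic adaptor Dab2 (-2.21 ± 0.19, at least 4.01-fold) and the lipopolysaccharide-binding protein Lbp (-2.16 ± 0.20, 4.47-fold, with 1 PGC-1alpha array above background) were lower by like amounts. So were the alphavirus receptor Mxra8 (-2.68 ± 0.13, at least 1.28-fold), the tyrosine phosphatase Ptpn7 (-2.26 ± 0.14, at least 1.80-fold) and Thsd4, a matrix protein of microfibrils (-2.19 ± 0.17, under background in both lines). Each of the 15 genes with the largest falls, down to Gstm1 at -1.96, was called whichever of the 6 arrays was left out.

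Fewer genes were strongly higher in PGC-1alpha explants. Cdh17, an intestinal-type cadherin, was the brightest of the 15 genes with the largest rises, at 11.49, 11.46 and 11.58 in PGC-1alpha explants and 10.14, 10.11 and 9.84 in control explants. It was 2.79-fold higher (1.48 ± 0.13, limma adjusted p = 1.31e-05), with a gap of more than 1 log2 unit between the lines. Armcx3, which encodes a mitochondrial outer membrane protein, had values of 6.89, 6.89 and 6.94 against 4.43, 4.03 and 3.89. Its difference was the largest of the rises (2.79 ± 0.23, adjusted p = 8.88e-06), but all 6 arrays lay under background, as for Pate14 (2.76 ± 0.23), Tlcd4 (1.71 ± 0.17) and the choline transporter-like gene Slc44a3 (1.53 ± 0.16). The milk protein gene Csn3, kappa-casein, stood at 9.15, 8.83 and 8.83 against 7.56, 7.34 and 7.19, at least 2.02-fold higher (1.58 ± 0.17, adjusted p = 8.98e-05).

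The other large rises were smaller than that of Csn3. The mannose receptor Mrc1 had values of 8.94, 8.93 and 9.01 against 7.68, 7.47 and 7.28 (at least 2.06-fold, 1.48 ± 0.17). Mrc1 also marks macrophages, and its level in these explants is set beside other leukocyte markers below. Slc25a23, a mitochondrial carrier of ATP-Mg and phosphate, had values of 8.07, 7.78 and 8.11 against 6.55, 7.36 and 6.55, where control replicate 2 lay closest to the other line (at least 1.05-fold, 1.17 ± 0.20, with 2 PGC-1alpha arrays above background). The glucuronosyltransferase Ugt2b34 was 2.25-fold higher (1.17 ± 0.16), the annexin Anxa10 at least 1.13-fold (1.23 ± 0.15, with 2 PGC-1alpha arrays above background), and the adhesion molecule Selp 2.20-fold (1.13 ± 0.28, limma adjusted p = 0.0375). Selp was the only 1 of these 15 rises that lost its call when an array was left out, and it did so whichever of the 6 was left out, with an adjusted p of up to 0.13.

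**Figure D1:**
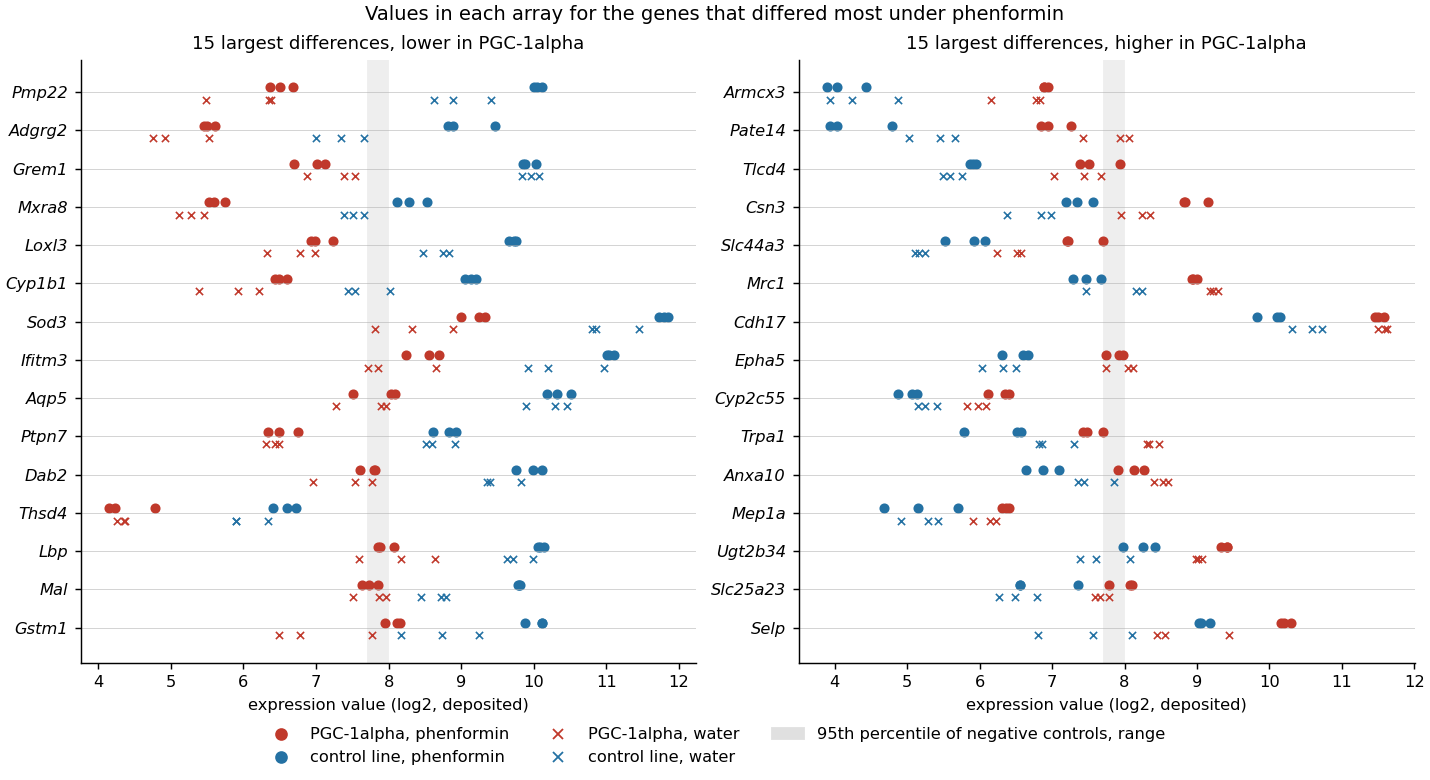
Deposited log2 values of the 15 genes with the largest falls (left) and the 15 with the largest rises (right) in the phenformin comparison, 1 point per array. Dots are phenformin arrays and crosses water arrays, red for PGC-1alpha and blue for the control line, and the grey band spans the background of the 12 arrays. For Pmp22 the red dots sit between 6.37 and 6.68 and the blue dots between 10.00 and 10.11.

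Genes of chromosome 16 were lower as a group in PGC-1alpha explants, a pattern looked at after the values were seen. Of 615 genes that the probe set names place on chromosome 16, 118 were called lower and 1, Cbr1, higher. These 118 made up 19.2% of all genes called lower. Among the 241 genes of this chromosome that exceeded background in at least 3 of the 12 arrays, 100 were called lower (41.5%) and 0 higher, while 6.91% of all 7640 such genes were called, and 6.07% called lower. Of the 241, 229 had a difference below 0 (95%), with a median of -0.44 and quartiles of -0.57 and -0.32. Over all 7640 genes the median was -0.06. Outside chromosome 16 limma called 664 of 18890 genes (3.52%), 166 higher and 498 lower (2.64%).

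The shift ran along the whole of chromosome 16 and was present in every array. In the order of genes along the chromosome, each of 10 consecutive windows of 24 or 25 genes had a median between -0.54 and -0.37. The 295 windows of like size on other chromosomes had medians from -0.34 to 0.22. Relative to each gene's mean over the 12 arrays, the median chromosome 16 gene stood at -0.20, -0.21 and -0.15 in the 3 PGC-1alpha phenformin arrays and at 0.24, 0.30 and 0.22 in the 3 control phenformin arrays. In water the same value was -0.25, -0.18 and -0.16 in PGC-1alpha explants and 0.12, 0.08 and 0.24 in control explants, so the lines did not overlap in either treatment. The median difference in water was -0.35. Without any 1 of the 6 phenformin arrays the median under phenformin stayed between -0.46 and -0.42. After the values were quantile normalized again it was -0.36. Genomic DNA of the lines was not analysed here.

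The called genes of chromosome 16 are of many kinds. Heg1, a membrane protein of endothelial and mesothelial junctions, had values of 8.03, 8.03 and 8.12 against 9.38, 9.25 and 9.45 and was 2.47-fold lower (-1.30 ± 0.17, limma adjusted p = 0.000511). Abcc1, an export pump for glutathione conjugates, stood at 10.01, 9.95 and 10.03 against 10.95, 10.92 and 10.95 and was 1.92-fold lower (-0.94 ± 0.12, adjusted p = 0.000364). App, the amyloid precursor protein, had values of 10.73, 10.72 and 10.75 against 11.47, 11.63 and 11.55 (-0.81 ± 0.11), and the surface protein Cd47 was lower by a like amount (-0.81 ± 0.14). These levels were tight within each line. The 4 receptor chains of the interferon and interleukin-10 family, which follow each other on this chromosome, were all called lower: Ifnar2 (-0.67 ± 0.12), Il10rb (-0.46 ± 0.11), Ifnar1 (-0.54 ± 0.13) and Ifngr2 (-0.80 ± 0.11). Ifngr1, the partner chain of Ifngr2, is encoded on chromosome 10 and differed by -0.13 ± 0.11 (adjusted p = 0.614).

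Smaller shifts were seen on a few other chromosomes. On chromosome 18 the median over genes above background was -0.22 under phenformin and -0.15 in water, with 92.0% of these genes below 0 under phenformin. Its 8 windows had medians from -0.25 to -0.18. Of its 440 genes 22 were called lower (5.0%, against 3.16% of all genes) and 1 higher. On chromosome 15 the median was -0.15, and of 715 genes 43 were called lower (6.01%) and 10 higher. On chromosomes 4, 8 and 12 the medians were -0.13, -0.11 and -0.10, against -0.06 over all genes above background. In water these were -0.06, 0.001 and -0.02, against 0.02 over all genes above background, and the chromosome 15 median was -0.06. The lowest window outside chromosome 16, at -0.34 under phenformin and -0.18 in water, lies near the end of chromosome 11, from Mfsd11 to 0610009L18Rik, and holds Lgals3bp and Rptor. The last 5 windows of chromosome 11, from Wnt9b to Tbcd, had medians of -0.31, -0.15, -0.13, -0.34 and -0.22. The highest window median, 0.22, belonged to the start of chromosome 1, from Mrpl15 to Tram2. In the gene groups below, called members that lie on chromosome 16 are named as such.

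**Figure D2:**
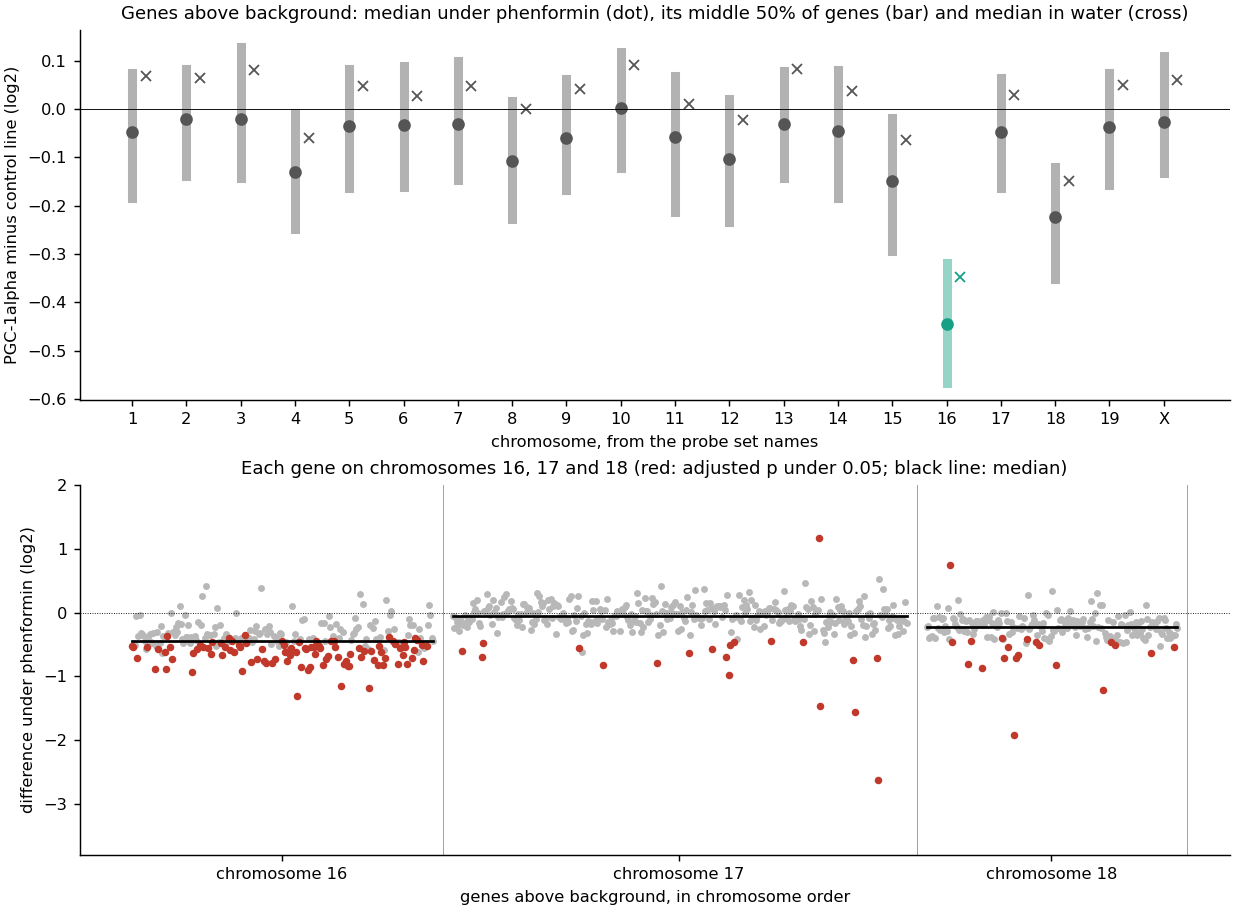
Top: median log2 difference (PGC-1alpha minus control line) over the genes above background on each chromosome under phenformin (dots), the middle 50% of those genes (bars) and the median in water (crosses). Bottom: the difference of each such gene along chromosomes 16, 17 and 18 under phenformin, with called genes in red and the median as a black line. Chromosome 16 sits at -0.44 and chromosome 18 at -0.22, while chromosome 17 lies at -0.05.

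Called genes of the interferon response were all lower in PGC-1alpha explants. Of 42 measured genes of this list, 9 were called lower (21.4%, against 3.16% of all genes tested) and none higher, 36 lay below 0, and the median was -0.34, against -0.01 over all genes. Only 8 of the 42 exceeded background in at least 3 of the 6 phenformin arrays, so the median rests mostly on genes near or under background. Lgals3bp, a secreted glycoprotein induced by interferon, was the only 1 of the 9 above background in all 6 arrays, at 10.84, 10.92 and 10.83 against 11.58, 11.67 and 11.61. It was 1.69-fold lower (-0.76 ± 0.13, limma adjusted p = 0.00454). Parp12, an ADP-ribosyltransferase, was at least 1.02-fold lower (-0.71 ± 0.15, with 1 control array above background). The other 7 lay under background in both lines. Among them, the RNA sensor Ddx58 had values of 5.88, 5.49 and 5.73 against 6.57, 6.75 and 6.49 (-0.90 ± 0.16). Irf7, a transcription factor that amplifies the interferon response, had values of 5.46, 5.48 and 5.50 against 6.24, 6.20 and 6.11 (-0.70 ± 0.17). Xaf1 (-0.97 ± 0.19), Ifi27 (-1.01 ± 0.21) and Ifit2 (-0.84 ± 0.22) were lower too. The count was 5, 4 and 4 without PGC-1alpha replicates 1, 2 and 3 and 3 without control replicate 2. None of the 9 lies on chromosome 16, and Lgals3bp lies in the lowest window of chromosome 11.

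Among other genes that interferon induces, Ifitm3 and 3 class I antigen presentation genes were called lower. Ifitm3, a membrane protein that blocks viral entry, had values of 8.56, 8.69 and 8.24 against 11.10, 11.01 and 11.03 and was 5.86-fold lower (-2.55 ± 0.26, limma adjusted p = 5.53e-05). The other Ifitm genes measured were not called, among them Ifitm2 at 12.69, 12.69 and 12.55 against 12.84, 12.86 and 12.86. Of 24 class I antigen presentation genes, 3 were called lower (12.5%, against 3.16% of all genes) and none higher, 20 lay below 0, and the median was -0.24. Only 9 of the 24 exceeded background in at least 3 of the 6 phenformin arrays. The 3 called genes were the class I heavy chains H2-K1 (1.73-fold, -0.79 ± 0.13), H2-D1 (1.55-fold, -0.63 ± 0.12, with 1 PGC-1alpha array above background) and H2-T10 (1.48-fold, -0.57 ± 0.11). H2-K1 stood at 9.13, 9.07 and 8.74 against 9.76, 9.89 and 9.65. The light chain B2m differed by -0.24 ± 0.12 (adjusted p = 0.335). Probe sets of closely related genes such as the class I chains and the Ifitm family can pick up each other's transcripts.

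Promoters are shown for called genes whose promoter carries the core of the interferon-stimulated response element, the site bound by interferon-activated factors. The core, GAAA, any 2 bases and GAAA, searched on both strands in the 250 bases before the start of transcription, was found in 2 of the 8 called interferon genes that have a promoter in the RefSeq table used, Isg15 and Gbp2. It was found in 14 of the 30 measured genes of the list with a promoter there (46.7%) and in 3.47% of all 15691 measured genes with one. Isg15, the ubiquitin-like modifier, had log2 values of 4.98, 5.19 and 4.66 in PGC-1alpha explants and 5.59, 5.63 and 5.38 in control explants (-0.59 ± 0.14, limma adjusted p = 0.024). Gbp2, a guanylate-binding protein, had values of 4.01, 3.75 and 4.16 against 4.47, 4.60 and 4.66 (-0.60 ± 0.14, adjusted p = 0.0299). Both genes lay under background. The sequences below are from RefSeq, build GRCm38.p6, read 5′ to 3′ in the gene's direction, with the bases of the core in capitals. The Isg15 promoter (chr4:156200819-156201068, minus strand) has 3 overlapping matches between 56 and 78 bases before the start, and the Gbp2 promoter (chr3:142620413-142620662, plus strand) has 1, on the opposite strand.
Isg15: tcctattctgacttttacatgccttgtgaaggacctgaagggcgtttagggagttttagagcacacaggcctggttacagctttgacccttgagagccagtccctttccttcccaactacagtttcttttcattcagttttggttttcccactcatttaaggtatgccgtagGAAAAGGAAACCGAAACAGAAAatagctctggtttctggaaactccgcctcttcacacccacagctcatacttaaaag
Gbp2: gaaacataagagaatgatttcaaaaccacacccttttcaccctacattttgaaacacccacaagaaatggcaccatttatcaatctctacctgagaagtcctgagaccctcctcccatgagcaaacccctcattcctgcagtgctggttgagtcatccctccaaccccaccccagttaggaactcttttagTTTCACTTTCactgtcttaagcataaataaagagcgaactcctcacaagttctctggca

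Chemokines, cytokines and other NF-kB targets included 9 of 43 measured genes called lower (20.9%, against 3.16% of all genes) and none higher, with a median of -0.18. Ccl7, a chemokine that attracts monocytes, had values of 7.60, 7.18 and 7.59 in PGC-1alpha explants and 8.71, 8.83 and 8.71 in control explants, at least 1.75-fold lower (-1.29 ± 0.13, limma adjusted p = 4.64e-05). Cxcl5, a neutrophil chemokine, stood at 9.68, 9.98 and 9.77 against 10.40, 10.47 and 10.45 (1.55-fold lower, -0.63 ± 0.11). The monocyte chemokine Ccl2 (1.43-fold, -0.52 ± 0.10), the alarmin Il33 (-0.46 ± 0.10) and the TNF-induced gene Tnfaip2 (1.45-fold, -0.53 ± 0.11) were lower by smaller amounts. Lcn2, an iron-binding acute phase protein, had values of 5.35, 5.06 and 4.80 against 6.28, 6.32 and 6.16, all under background (-1.18 ± 0.18). Nfkbiz, a nuclear regulator of NF-kB (1.57-fold, -0.65 ± 0.11), lies on chromosome 16. The count was 4 and 5 without PGC-1alpha replicates 1 and 2, and 4 without control replicate 2.

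The NF-kB element, GGGA, any 2 bases and TTCC, was searched the same way. Of the 5 called genes of that list with a promoter in the table, 2 carried it, Cxcl3 and Nfkbia. It was found in 1.29% of all measured genes with a promoter, 1.87% of those called lower and 3.08% of those called higher. The list was chosen to hold NF-kB targets and the element was not counted in its uncalled members. These shares therefore do not link the element to the calls. Cxcl3, a neutrophil chemokine, had log2 values of 7.90, 7.92 and 7.70 in PGC-1alpha explants and 8.52, 8.42 and 8.54 in control explants (-0.65 ± 0.15, limma adjusted p = 0.0247). Nfkbia, the inhibitor that holds NF-kB in the cytoplasm and is itself an NF-kB target, had values of 7.94, 7.91 and 7.95 against 8.20, 8.41 and 8.51 (-0.44 ± 0.11, adjusted p = 0.036). In both genes the lines did not overlap. Their promoters are shown because the element lies close to the start, with its bases in capitals: between 62 and 73 bases before it in Cxcl3 (chr5:90785851-90786100, plus strand), where matches on both strands overlap, and between 19 and 29 bases in Nfkbia (chr12:55492648-55492897, minus strand).
Cxcl3: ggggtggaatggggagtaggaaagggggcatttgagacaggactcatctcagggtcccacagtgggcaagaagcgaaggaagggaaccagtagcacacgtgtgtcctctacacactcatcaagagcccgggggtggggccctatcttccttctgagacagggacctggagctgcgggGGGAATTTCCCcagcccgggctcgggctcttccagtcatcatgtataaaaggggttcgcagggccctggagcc
Nfkbia: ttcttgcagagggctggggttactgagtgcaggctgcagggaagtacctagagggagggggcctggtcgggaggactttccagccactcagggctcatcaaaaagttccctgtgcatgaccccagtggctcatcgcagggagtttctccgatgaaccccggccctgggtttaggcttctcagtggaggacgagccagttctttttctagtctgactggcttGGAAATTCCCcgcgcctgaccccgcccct

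Called mesenchymal transition genes were lower with 1 exception. Of 31 measured, 11 were called lower (35.5%, against 3.16% of all genes) and 1 higher, and the median was -0.17. Thbs1, the matrix glycoprotein thrombospondin, had values of 8.70, 8.88 and 9.13 against 10.41, 10.56 and 10.46 and was 2.97-fold lower (-1.57 ± 0.12, limma adjusted p = 6.61e-06). Sparc, a collagen-binding matrix protein, stood at 11.65, 11.53 and 11.46 against 12.24, 12.29 and 12.35 (1.68-fold lower, -0.75 ± 0.10). Fibronectin, Fn1, had values of 10.07, 9.83 and 9.88 against 10.72, 10.84 and 10.69 (-0.82 ± 0.15). Of the transcription factors of this programme, Snai1 (-0.78 ± 0.15) and Snai2 (-0.64 ± 0.13, on chromosome 16) were called lower, and Zeb1 was not (-0.36 ± 0.12, adjusted p = 0.135). The intermediate filament Vim stood at 13.29, 13.16 and 13.29 against 13.48, 13.47 and 13.45 and was not called (-0.22 ± 0.09, adjusted p = 0.258). The exception was Ccn2, a matricellular protein that YAP and TGF-beta induce, at 10.73, 10.80 and 10.82 against 9.89, 9.90 and 9.92 (1.84-fold higher, 0.88 ± 0.11, adjusted p = 0.000317).

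Of 41 epithelial genes measured, 3 were called lower (7.32%, against 3.16% of all genes) and none higher, with a median of 0.05. The plaque proteins Pkp1 (at least 1.70-fold, -1.24 ± 0.14) and Jup (1.34-fold, -0.43 ± 0.10) and the keratin Krt7 (-0.60 ± 0.14) were the 3. E-cadherin, Cdh1, had log2 values of 12.11, 12.09 and 12.32 against 12.12, 12.28 and 12.18, which overlap (-0.02 ± 0.11, limma adjusted p = 0.953). Without PGC-1alpha replicate 1 or control replicate 2 the count of epithelial calls was 1.

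Called genes for enzymes that build and cut the extracellular matrix were lower. Of 11 lysyl oxidases and other crosslinking enzymes, 4 were called lower (36.4%, against 3.16% of all genes) and none higher, with a median of -0.46: Loxl3, Plod1 (1.52-fold, -0.61 ± 0.11), Loxl4 (1.46-fold, -0.55 ± 0.11) and the prolyl hydroxylase subunit P4ha1 (1.74-fold, -0.80 ± 0.16). This count was 2 without PGC-1alpha replicate 1 or control replicate 2. Of 37 matrix proteases and inhibitors, 9 were called lower (24.3%) and none higher, with a median of -0.14. The metalloprotease Adam8 had values of 8.0, 7.79 and 8.04 against 9.79, 9.84 and 9.81 and was 3.65-fold lower (-1.87 ± 0.14, limma adjusted p = 5.79e-06), with 2 of its 3 PGC-1alpha arrays above background. The inhibitor Timp1 stood at 10.30, 10.10 and 10.34 against 10.97, 11.22 and 11.03 (1.77-fold lower, -0.83 ± 0.11). Of the plasminogen activators, Plat (1.55-fold, -0.64 ± 0.10) and Plau (-0.75 ± 0.14) were lower, and so were the serpins Serpinb2 (2.16-fold, -1.11 ± 0.13) and Serpinb5 (2.03-fold, -1.02 ± 0.16, with 1 PGC-1alpha array above background).

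Collagens went in both directions. Of 41 measured, 4 were called lower (9.76%, against 3.16% of all genes) and 2 higher, with a median of 0.12. The chains of collagen VI differed among themselves. Col6a1 had values of 9.19, 9.22 and 8.89 against 10.32, 10.61 and 10.23 (2.44-fold lower, -1.29 ± 0.16), and Col6a2 had values of 8.55, 8.06 and 8.53 against 9.98, 10.21 and 9.88 (3.13-fold lower, -1.64 ± 0.16). Col6a3, under background in both lines, had values of 6.90, 6.70 and 6.68 against 6.26, 6.11 and 6.34 (0.52 ± 0.11, limma adjusted p = 0.0161). Of 37 laminins, integrins and matrix receptors, 6 were called lower (16.2%) and none higher, with a median of -0.12. They include the laminin chain Lamb3 (1.70-fold, -0.76 ± 0.14), the syndecan Sdc1 (1.57-fold, -0.65 ± 0.12), the integrin chains Itgb3 (1.63-fold, -0.71 ± 0.14, with 2 PGC-1alpha arrays above background) and, on chromosome 16, Itgb5 (1.37-fold, -0.46 ± 0.12). Without control replicate 2 this count was 3. Receptors and ligands of TGF-beta and bone morphogenetic proteins gave 4 of 42 called lower (9.52%) and none higher (median -0.15), which are Grem1, Inhba (1.49-fold, -0.57 ± 0.10), Tgfbr2 (1.72-fold, -0.78 ± 0.10) and Bmper (-0.65 ± 0.17).

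**Figure D3:**
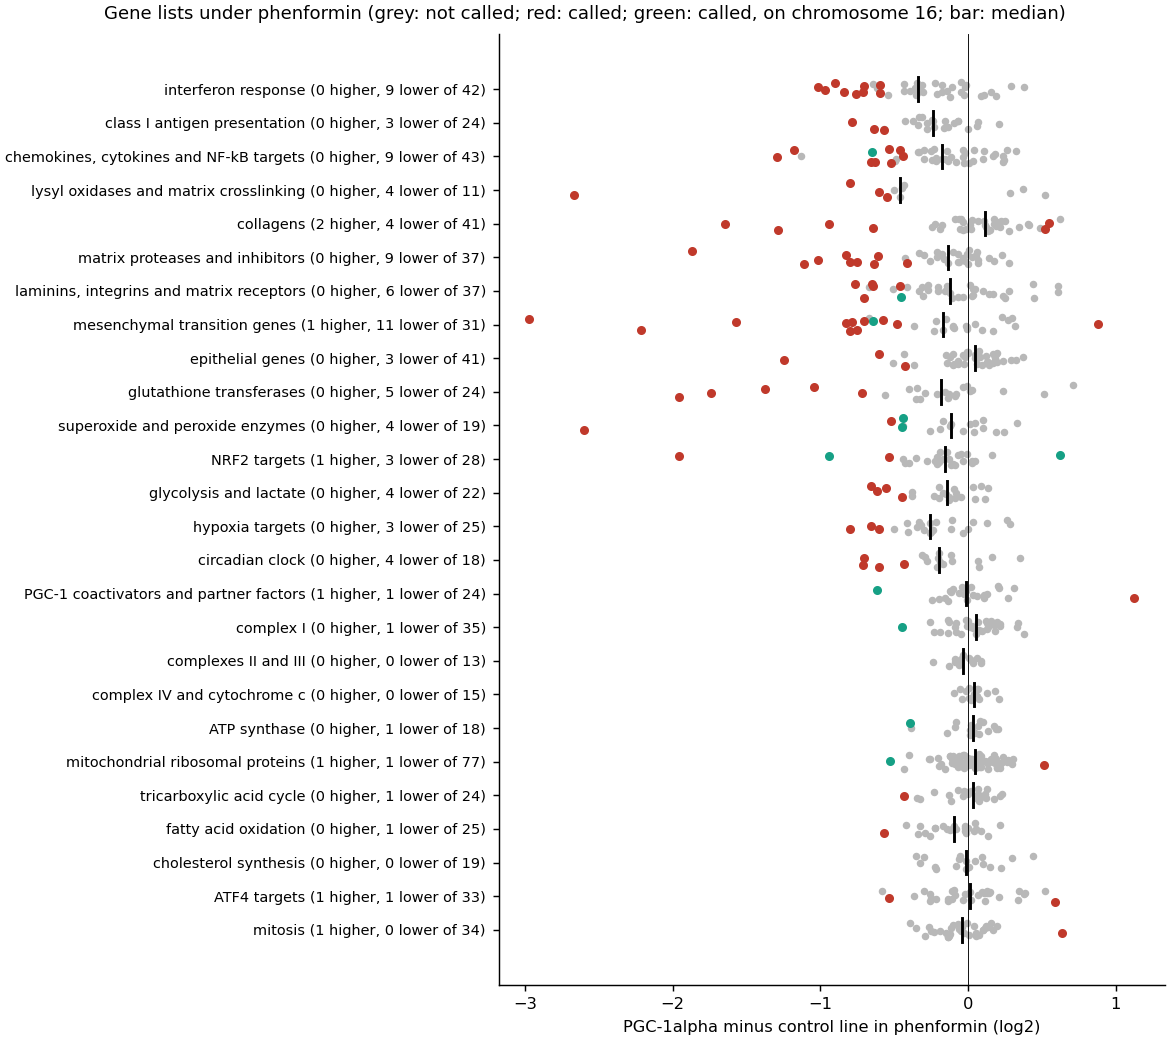
Log2 difference (PGC-1alpha minus control line) under phenformin of every measured member of 26 gene lists, 1 point per gene. Grey points were not called, red points were called, green points were called and lie on chromosome 16, and black bars are list medians. The interferon list centres on -0.34 and the lists of complex I, complex IV and ATP synthase on 0.05, 0.04 and 0.04. Of the 42 interferon genes, 8 exceeded background in at least 3 of the 6 phenformin arrays.

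Glutathione transferases, which conjugate electrophiles to glutathione, included 5 of 24 measured genes called lower (20.8%, against 3.16% of all genes) and none higher, with a median of -0.18. Gstm1 had values of 8.16, 8.11 and 7.95 in PGC-1alpha explants and 10.11, 10.12 and 9.87 in control explants (3.89-fold lower, -1.96 ± 0.29, limma adjusted p = 0.00126). Gstm2 (at least 1.19-fold, -1.04 ± 0.15), Gstm7 (-1.38 ± 0.13), Gstp3 (-1.74 ± 0.21) and Gsta2 (-0.72 ± 0.18) were the others. The Gstm genes are close in sequence, so their probe sets may share signal. Of 19 superoxide and peroxide enzymes, 4 were called lower (21.1%) and none higher: Sod3, Gpx8 (1.43-fold, -0.52 ± 0.11) and, on chromosome 16, Sod1 (1.36-fold, -0.44 ± 0.10) and Txnrd2 (1.36-fold, -0.45 ± 0.11). Without PGC-1alpha replicates 1, 2 and 3 this count was 2, 2 and 1, and without control replicates 2 and 3 it was 1 and 2.

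Targets of NRF2, the factor that switches on antioxidant genes, gave 3 of 28 called lower (10.7%, against 3.16% of all genes) and 1 higher (median -0.16). Slc7a11, the cystine importer that feeds glutathione synthesis, stood at 9.12, 9.12 and 9.07 against 9.45, 9.63 and 9.84 (1.45-fold lower, -0.54 ± 0.13, limma adjusted p = 0.0398), and was called in 1 of the 6 fits that left out an array. Gstm1 and Abcc1 were the other 2 lower genes, and the carbonyl reductase Cbr1 was the higher one (0.62 ± 0.15). Abcc1 and Cbr1 both lie on chromosome 16. Among alcohol, aldehyde and carbonyl enzymes, 3 of 34 were called lower (8.82%) and 2 higher, and the lower count was 1 without PGC-1alpha replicate 2 or control replicate 2. The aldehyde dehydrogenase Aldh3a1 had values of 7.41, 7.61 and 7.64 against 9.07, 9.33 and 9.25 and was at least 2.41-fold lower (-1.66 ± 0.11, adjusted p = 1.75e-06).

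Among genes of the respiratory chain, through which PGC-1alpha is best known, limma called 1 complex I and 1 ATP synthase gene, both lower. Of 35 complex I subunits, 1 was called lower (2.86%, against 3.16% of all genes) and none higher. Of the 35, 34 exceeded background in at least 3 of the 6 phenformin arrays, and 6.07% of genes above background were called lower. The list median was 0.05, against -0.06 over genes above background, and 0.14 after quantile normalization. In water it was 0.19, against 0.02 over genes above background. The called subunit, Ndufb4, lies on chromosome 16 and stood at 10.59, 10.50 and 10.44 against 10.96, 10.94 and 10.98 (1.36-fold lower, -0.45 ± 0.12, limma adjusted p = 0.0472). Of 18 ATP synthase genes, Atp5o, also on chromosome 16, was the only 1 called, or 5.56% (1.32-fold lower, -0.40 ± 0.09, adjusted p = 0.0302). Limma called none of the 13 genes of complexes II and III (median -0.03, or 0.06 after quantile normalization) and none of the 15 of complex IV with cytochrome c (median 0.04, or 0.11). The ATP synthase median was 0.04, or 0.09 after quantile normalization. Without any 1 of the 6 arrays neither Ndufb4 nor Atp5o was called.

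Of 24 PGC-1 coactivators and partners, 2 were called (8.33%, against 4.01% of all genes): Ppargc1a was higher and Gabpa, the DNA-binding chain of GABP, lower, with a list median of -0.01 that was 0.05 after quantile normalization. Gabpa lies on chromosome 16 and had values of 10.00, 10.12 and 10.04 against 10.65, 10.63 and 10.72 (1.53-fold lower, -0.62 ± 0.10, limma adjusted p = 0.00389). The related coactivator Ppargc1b had values of 8.07, 8.21 and 8.26 against 7.93, 7.96 and 7.72 (0.31 ± 0.11, adjusted p = 0.162). Tfam, which packages and transcribes mitochondrial DNA, differed by 0.27 ± 0.15 (adjusted p = 0.408) and Nrf1 by -0.12 ± 0.17 (adjusted p = 0.809). Of 77 mitochondrial ribosomal proteins, Mrpl15 was called higher and Mrpl39, on chromosome 16, lower (2.60% called), with a median of 0.05, or 0.12 after quantile normalization. Of 40 mitochondrial import and protein stress genes, the import chaperone Timm8a1 (0.41 ± 0.10) and Chchd10 (1.66-fold, 0.73 ± 0.19) were called higher (5.0%, against 0.856% of all genes) and none lower. The element TNAAGGTCA, bound by the estrogen-related receptors that PGC-1alpha coactivates, was found by the search above in the promoters of 1 of 130 called higher genes (0.769%), 0.83% of called lower genes and 1.06% of all measured genes.

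Called genes of carbon metabolism were lower, but only in the glycolysis list was their share well above that of all genes. Of 25 fatty acid oxidation genes 1 was called lower (4.0%, near the 3.16% of all genes) and none higher. This was Cpt1a, which admits long-chain fatty acids to mitochondria. It stood at 9.34, 9.36 and 9.36 against 9.83, 10.00 and 9.94 (1.48-fold lower, -0.57 ± 0.10, limma adjusted p = 0.00454), and the median of the list was -0.09. Of 24 tricarboxylic acid cycle genes (median 0.04) 1 was called lower (4.17%) and none higher. This was the pyruvate dehydrogenase phosphatase Pdp1 (1.35-fold, -0.43 ± 0.11), which was not called without any 1 of the 6 arrays or after quantile normalization. Of 22 glycolysis and lactate genes, 4 were called lower (18.2%, against 3.16% of all genes) and none higher, with a median of -0.14: the phosphofructokinases Pfkm (1.53-fold, -0.61 ± 0.11) and Pfkp (1.36-fold, -0.45 ± 0.12), the glucose transporter Slc2a1 (1.57-fold, -0.65 ± 0.15) and the aldolase Aldoc (at least 1.30-fold, -0.55 ± 0.13). Slc2a1 had values of 11.28, 11.43 and 10.98 against 11.80, 11.78 and 12.07. The glycolysis count was 1 without PGC-1alpha replicates 1 or 3 or control replicates 2 or 3, and 2 without control replicate 1.

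Hypoxia targets and clock genes held a few lower genes each. Of 25 hypoxia targets, 3 were called lower (12%, against 3.16% of all genes) and none higher (median -0.26): Egln3, the oxygen-sensing prolyl hydroxylase (1.52-fold, -0.61 ± 0.12), P4ha1 and Slc2a1. Of 18 clock genes, 4 were called lower (22.2%) and none higher (median -0.20): Dbp (1.52-fold, -0.60 ± 0.13), Bhlhe40 (1.35-fold, -0.43 ± 0.10), Nr1d1 (1.63-fold, -0.71 ± 0.16) and Rora (-0.70 ± 0.17). Both counts rested on single arrays. Without PGC-1alpha replicates 1, 2 and 3 the clock count was 1, 0 and 0, and without control replicates 1, 2 and 3 it was 2, 0 and 0. The hypoxia count was 0 without PGC-1alpha replicate 1 or control replicate 3, and 1 without PGC-1alpha replicate 3 or control replicate 2. Txnip, which restrains glucose uptake, had values of 7.42, 7.79 and 7.80 against 8.43, 8.58 and 8.55 (at least 1.49-fold lower, -0.85 ± 0.16, limma adjusted p = 0.00867).

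Genes of energy sensing differed by subunit. Prkaa1 and Prkaa2 encode alternative catalytic subunits of AMPK. Prkaa1 stood at 10.08, 9.86 and 10.14 in PGC-1alpha explants and 10.41, 10.46 and 10.44 in control explants (1.33-fold lower, -0.41 ± 0.10, limma adjusted p = 0.0407). Prkaa2 stood at 8.35, 8.52 and 8.63 against 7.86, 8.13 and 8.11 (1.38-fold higher, 0.47 ± 0.12, adjusted p = 0.0467), with 2 control arrays above background. Of 34 AMPK and mTORC1 genes 4 were called (11.8%, against 4.01% of all genes). Besides Prkaa1 and Prkaa2 these were the mTORC1 scaffold Rptor, lower (1.46-fold, -0.54 ± 0.12), and Rragb, higher (0.43 ± 0.11). Rptor lies in the lowest window of chromosome 11. Prkaa1, Prkaa2 and Rragb were called in none of the fits that left out 1 of the 6 arrays, and Rptor in 1 of them. Among 11 biguanide transporters measured 1 was called (9.09%), the efflux pump Abcb1b, which was higher (at least 1.30-fold, 0.61 ± 0.12).

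Of 33 targets of ATF4, the factor of the integrated stress response, Cth was called higher and Slc7a11 lower (6.06%, against 4.01% of all genes), with a median of 0.01. Cth, which makes cysteine, stood at 8.93, 8.85 and 8.63 against 8.33, 8.22 and 8.10 (1.5-fold higher, 0.59 ± 0.11, limma adjusted p = 0.00842). Of 20 genes of the unfolded protein response, Dnajb11 (1.65-fold, -0.72 ± 0.13) and Sdf2l1 (1.48-fold, -0.56 ± 0.12) were called lower, both on chromosome 16 (10.0% of the list, against 3.16% of all genes), a count that was 1 without PGC-1alpha replicates 1 or 3 or control replicate 2. Limma called none of 19 cholesterol synthesis genes, 18 tRNA synthetases, 23 p53 targets and 56 cytosolic ribosomal proteins, whose medians lay between -0.08 and 0.10, those of cholesterol synthesis and tRNA synthetases turning to 0.05 and 0.07 after quantile normalization. Of 34 mitosis genes Cenpw was called higher (0.63 ± 0.16), and of 36 replication genes Ccne1 (1.36-fold, -0.44 ± 0.11) and, on chromosome 16, Cdc45 (1.54-fold, -0.62 ± 0.14) were called lower (5.56%), and neither was without any 1 of the 6 arrays. Of 28 ErbB receptors, ligands and feedback genes, Egr1 was the only 1 called (1.64-fold lower, -0.71 ± 0.15). Erbb2 itself had values of 10.07, 9.90 and 10.09 against 9.75, 9.96 and 9.84 (0.17 ± 0.11, adjusted p = 0.477).

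Across the lists, 134 distinct genes were among the 783 called, 119 of them outside chromosome 16. The number of distinct genes measured across the lists is not given here, so no share can be set against the 4.01% of all genes. Of 27 Notch signalling genes 2 were called (7.41%, against 4.01% of all genes), both lower: the ligand Jag2 (-1.13 ± 0.12) and Hes6. Of 21 ephrins and Eph receptors 3 were called (14.3%). The receptors Epha5 (1.36 ± 0.15) and Ephb1 (1.51-fold, 0.59 ± 0.11) were higher and the ephrin Efnb1 lower (1.5-fold, -0.58 ± 0.11). Of 47 Wnt signalling genes Wnt7b was the only 1 called, or 2.13% (1.5-fold lower, -0.58 ± 0.09). Of 20 angiogenic factors 4 were called (20%, against 4.01% of all genes), 3 lower and 1 higher. The lower count was 2 without PGC-1alpha replicates 2 or 3 or control replicates 1, 2 or 3. The ligands of the Tie2 receptor, angiopoietins 1 and 2, differed in opposite directions, both under background: Angpt1 had values of 4.52, 4.61 and 4.46 against 5.67, 6.01 and 5.71 (-1.27 ± 0.16, limma adjusted p = 0.000398), and Angpt2 had values of 7.31, 7.64 and 7.53 against 6.52, 6.72 and 6.72 (0.84 ± 0.17, adjusted p = 0.0104). The milk-fat enzyme Xdh was at least 1.96-fold lower (-1.55 ± 0.19) while Csn3 was higher.

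In water, limma called 391 genes between the lines (2.0% of genes tested), 124 higher (0.636%) and 267 lower (1.37%) in PGC-1alpha explants. With only the 6 water arrays fitted this count was 140, where the 6 phenformin arrays alone gave 1032, and without control replicate 3 in water it was 147 higher and 182 lower. The comparisons share no arrays, but they share the estimate of each gene's spread. Called in both were 293 genes, 66 higher and 227 lower, which is 37.4% of the phenformin calls and 74.9% of the water calls. Of the 783 genes called under phenformin, 750 had the same sign in water. In 629 of those the difference was larger under phenformin, where the calls were made, and the median size of the difference was 0.64 there and 0.44 in water. Across all genes the 2 differences had a Pearson r of 0.56, a description only, since genes are not independent replicates. Pmp22 differed by -2.90 ± 0.23 in water, Sod3 by -2.70 ± 0.23, Adgrg2 by -2.27 ± 0.22 and Armcx3 by 2.24 ± 0.23.

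**Figure D4:**
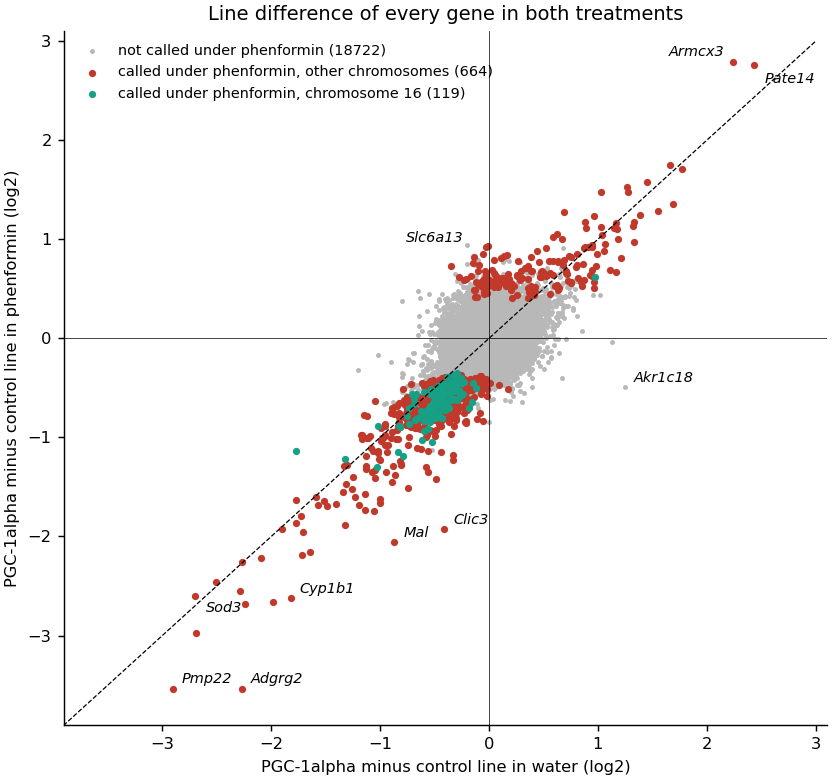
Log2 difference between the lines (PGC-1alpha minus control line) of each of the 19505 genes in water (horizontal axis) and under phenformin (vertical axis), with the line of equal differences dashed. Genes called under phenformin are red, or green on chromosome 16, and the others grey. Pmp22 lies at -2.90 and -3.54, and Akr1c18 stands off the diagonal at 1.25 and -0.50.

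Whether a line difference changed with the drug was tested as the difference of the line differences. Limma called 0 genes for it, with 1018 genes at an unadjusted p under 0.05 and a smallest adjusted p of 0.164. So none of the 490 genes called under phenformin and not in water was shown to differ between the treatments. Mal, a tetraspan protein of apical membrane traffic, was among the genes with the smallest adjusted p but was not called. In water it stood at 7.51, 7.87 and 7.96 in PGC-1alpha and 8.73, 8.45 and 8.79 in control explants, and under phenformin at 7.73, 7.86 and 7.64 against 9.78, 9.81 and 9.80. Its difference was -0.87 ± 0.13 in water and -2.06 ± 0.13 under phenformin (difference of differences -1.18 ± 0.19, adjusted p = 0.164). Clic3, a chloride channel family protein, differed by -0.41 ± 0.17 in water and -1.93 ± 0.17 under phenformin, where control explants had 7.58, 7.93 and 7.60 and PGC-1alpha explants 6.19, 5.34 and 5.79 (adjusted p = 0.164).

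Akr1c18, the hydroxysteroid dehydrogenase that inactivates progesterone, had opposite signs. It differed by 1.25 ± 0.19 in water and by -0.50 ± 0.19 under phenformin, where it was not called (limma adjusted p = 0.202), and the lines overlapped at 6.32, 6.30 and 6.65 against 7.06, 7.08 and 6.61. All 12 of its values lay under background. With a trended and robust prior 3 genes were called for the difference of differences, Akr1c18, Clic3 and Mal. Mal alone was called when only genes above background were tested, and Clic3 alone without PGC-1alpha phenformin replicate 1. The GABA transporter Slc6a13 was higher under phenformin (0.82 ± 0.12, adjusted p = 0.00116) and differed by -0.14 ± 0.12 in water. Among genes called under phenformin with almost no difference in water, the AP-1 subunit Jun had values of 8.63, 8.43 and 8.48 against 9.03, 9.16 and 9.08 (1.49-fold lower, -0.58 ± 0.12, adjusted p = 0.0119) and differed by -0.02 ± 0.12 in water. Atg16l2, a relative of an autophagy gene, was 1.89-fold higher under phenformin (0.92 ± 0.21) and differed by -0.03 ± 0.21 in water. The spread of Atg16l2 was wide in control explants, at 9.40, 8.56 and 8.91.

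**Figure D5:**
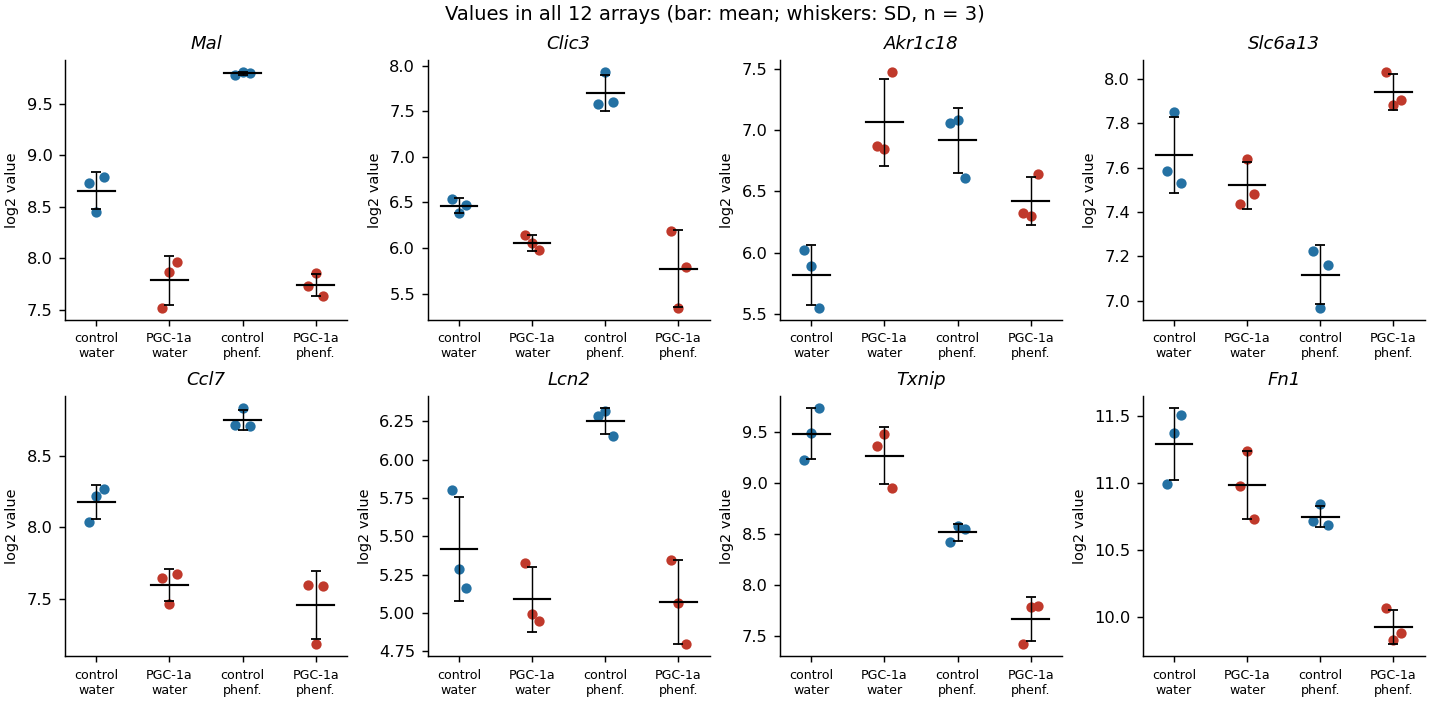
Log2 values of 8 genes in all 12 arrays, 1 point per array, with the mean (bar) and SD (whiskers, n = 3) of each group, blue for the control line and red for PGC-1alpha. The axes differ between panels and do not start at 0. For Mal the control arrays lie from 8.45 to 8.79 in water and from 9.78 to 9.81 in phenformin, and the PGC-1alpha arrays between 7.51 and 7.96.

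Markers of the cell types an explant could hold were checked in the 6 phenformin arrays. In these bulk samples fewer cells of a type and less RNA per cell cannot be told apart. Of 8 epithelial markers, Cdh1, Krt8, Krt18 and Krt19 exceeded background in every array of both lines, while Epcam lay at 5.05, 5.60 and 5.51 against 5.25, 5.38 and 5.61, under background. The sum of the 8 log2 values was 70.7 to 71.9 in PGC-1alpha and 71.9 to 72.6 in control explants under phenformin, and 70.4 to 70.9 against 71.5 to 72.7 in water, and the lines did not overlap in either, under phenformin by less than the rounding shown. Krt7 was called lower. None of 13 fibroblast and mural markers and none of 12 lung epithelium markers exceeded background in all arrays of a group. Of 16 leukocyte markers only Cd14 did so in both lines and Mrc1 in PGC-1alpha explants, and the sum of the 16 log2 values was 90.4 to 93.2 in PGC-1alpha and 89.8 to 91.8 in control explants. While Mrc1 was called higher, Cd14 was called lower (1.33-fold, -0.41 ± 0.10, limma adjusted p = 0.0338). Of 11 endothelial markers Flt1 and Esam did so, with sums of 65.6 to 66.8 against 65.6 to 67.2, and Flt1 was called lower (1.38-fold, -0.46 ± 0.12). The part of other cell types in the differences above was not tested. Negative control medians lay between 5.09 and 5.20 in the 6 arrays, and replicates of a line correlated at 0.993 to 0.996 across genes.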

How the data were processed

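Total RNA of 12 explant samples, 3 in each of 4 groups named by the sample titles, was measured on GeneChip expression arrays. Labelled cDNA was made from 10 ng of RNA, per the labels' protocols. The deposited table holds 28815 probe sets with values from 1.50 to 13.65, read as log2 from that range; how the authors normalized and summarised them is not stated in the labels, and the log2 scale is an inference. Another table, whose 12 value columns match no sample label, was not used.

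Gene symbols of 19572 mouse probe sets came from the platform annotation, matched to RefSeq through Entrez identifiers; 2634 transcript clusters had none. For 55 genes with several probe sets the brightest was kept, which left 19505 genes. Probe set names gave the chromosomes, and gene order came from RefSeq, build GRCm38.p6.

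limma 3.58.1 in R 4.3.3 (lmFit, eBayes) fitted 4 group means over all 12 arrays, with 8 residual and 5.84 prior degrees of freedom. Tests were two-sided, adjusted by Benjamini-Hochberg over all 19505 genes, at a threshold of 0.05. The fit was tested on simulated data. The files hold no detection calls, so background was the 95th percentile of each array's 5222 negative control probe sets. A fold marked "at least" sets the brighter line against the higher of that percentile and the dimmer line's own value, averaged over arrays. The number of arrays limits the precision.

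The members and gene lists were chosen with earlier results of these data known, so lists are described by counts and medians, with no set test. Named were Ppargc1a, the 15 largest rises and falls among called genes whose lines did not overlap (predicted, olfactory, vomeronasal and small RNA symbols left out), up to 6 called members per list, the 8 genes with the smallest p for the difference of line differences, and the 10 called genes with the smallest difference in water. Genes outside this rule (Gbp2, Irf7, Ifit2, Il33, Cxcl3, Nfkbia, Fn1, Snai1, Snai2, Plau, Vim, Zeb1, Cdh1, Epcam, Ifitm2, B2m, Ppargc1b, Tfam, Nrf1, Erbb2, Ifngr1 and the genes of chromosome 16 outside the lists, and further markers) were chosen after their values were seen. Same-numbered phenformin samples did not deviate together (correlations of 0.06, -0.12 and -0.12), which cannot show whether they share a mouse or culture. The labels state no pairing, and the main fit used none. Alternatives were other normalization, filters, priors, weights and blocks, and each array left out. Markers and list members without a probe set were not analysed here.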

Additional observations from a re-analysis of the deposited data

How the results depend on the processing

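None of the 153 genes that the naming rule chose reversed its direction under any alternative run. Genes named outside that rule, some with differences near 0, were not part of this count. The 783 calls under phenformin became 1624 with array weights and 178 when tested against a log2 difference of 0.25, and 346 to 995 with 1 array left out. They stayed within 1.5 times with the replicate block (555), although the labels do not say that the numbers pair the samples. So they did with only the 6 phenformin arrays (1032), after quantile normalization (647, 28.4% higher), above background (1021) and with a trended and robust prior (1165). The same held with the gap between control probe sets as a covariate (added after the data were seen) (571), and without chromosome 16 (664). The 391 calls in water became 140 with only the 6 water arrays, 626 with the trended prior, 127 against 0.25, 193 with the gap covariate, and 247 to 330 with 1 array left out. Without control water replicate 3, 44.7% of the calls in water were higher, against 31.7%. The difference of line differences gave 1 gene above background, 3 with the trended prior, and 0 to 1 with 1 array left out. The 134 called list genes became 70 to 97 with 1 array left out. The chromosome 16 median of -0.44 was -0.18 over all its genes, -0.42 above the median level, -0.36 after quantile normalization, and -0.46 to -0.42 with 1 array left out. Of 149 named genes called, 77 passed whichever array was left out. Under quantile normalization 10 list medians changed sign, all near 0. Where a count moved, the cause was not tested. Of the calls, 7 of the 9 interferon genes and 3 of the 5 glutathione transferases lay under background in both lines, where signal over background limits what the arrays show.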
